A study of Mus musculus with 12 samples.

Results

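The extracellular matrix genes measured here were the 84 of 11481 genes, over both deposited tables, whose row names begin with the symbols of collagen chains, laminin chains, matrix metalloproteinases (MMPs), their TIMP inhibitors, ADAMTS proteases, lysyl oxidases, fibulins and fibrillins, or are Fn1, Eln, Sparc or Postn. The rule works on row names. Of these, 74 were among the 10648 genes of the mock table, 81 among the 11125 of the doxorubicin table and 71 among the 10292 in both. Eln, Col8a2 and Adamtsl3 were listed in mock only, and 10 genes were listed after doxorubicin only. One row that fits the name rule, Col4a3bp, encodes a ceramide transfer protein and no matrix protein. It stays in the counts and was not called in any comparison.

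RNA was sequenced from primary mouse embryonic fibroblasts (MEFs) on a hybrid 129/B6 background. There were 4 groups of 3 libraries: lincRNA-p21-/- cells (KO) with doxorubicin, KO cells with mock treatment, lincRNA-p21+/+ cells (WT) with doxorubicin and WT cells with mock treatment. LincRNA-p21 is a long noncoding RNA induced by p53, and doxorubicin damages DNA and so activates p53. The labels give the drug as 0.5 mM for 24 hours, a unit that is in doubt because micromolar doses are usual. Values are CPM, reads of a gene scaled to a common library total, from libraries of 14327048 to 20511907 reads.

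The labels do not say whether the 3 replicates of a group came from separate embryos or cultures, so p-values measure the spread between these libraries, which may be technical. Reads of lincRNA-p21 itself were not analysed here, which leaves each genotype resting on its label. Markers fitted the labelled cell type in part: 9 of 11 listed fibroblast markers were measured in both tables, with summed levels of 5552 to 6363 CPM (KO doxorubicin), 5842 to 6873 (KO mock), 5991 to 6476 (WT doxorubicin) and 6265 to 7814 (WT mock). The other 2, Dpt and Lum, were not in the tables, nor were the defining endothelial, blood and epithelial genes Pecam1, Cdh5, Ptprc, Epcam and Cdh1, although 5 of 10 endothelial, 3 of 9 blood and 4 of 10 epithelial markers were in at least 1 table. In such bulk RNA, fewer cells of a type and less RNA per cell cannot be told apart.

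Fibroblasts build the matrix of connective tissue. Fibrillar collagens (types I, III, V and XI among them) are secreted as trimers, trimmed by ADAMTS proteases, and cross-linked by lysyl oxidases, while type IV collagen and laminins form the basement membrane under epithelia and around vessels. MMPs cut these proteins, some as secreted enzymes and some while anchored in the cell membrane, and TIMPs inhibit MMPs.

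With doxorubicin the summed RNA of the matrix genes was lower in both genotypes. In KO cells the matrix genes measured in both tables summed to 63614, 49951 and 63178 CPM with doxorubicin, against 90467, 78239 and 104132 CPM in mock. In WT cells they summed to 66594, 56444 and 60830 CPM with doxorubicin, against 106675, 92073 and 105424 CPM in mock. Every doxorubicin library lay below every mock library of both genotypes. Without Fn1, the fibronectin gene, the sums were 36102 to 46804 CPM (KO doxorubicin), 60610 to 83975 (KO mock), 41761 to 46207 (WT doxorubicin) and 69312 to 82714 (WT mock). CPM is not divided by gene length, so a sum weights long and abundant transcripts most and serves only to compare libraries.

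**Figure D1:**
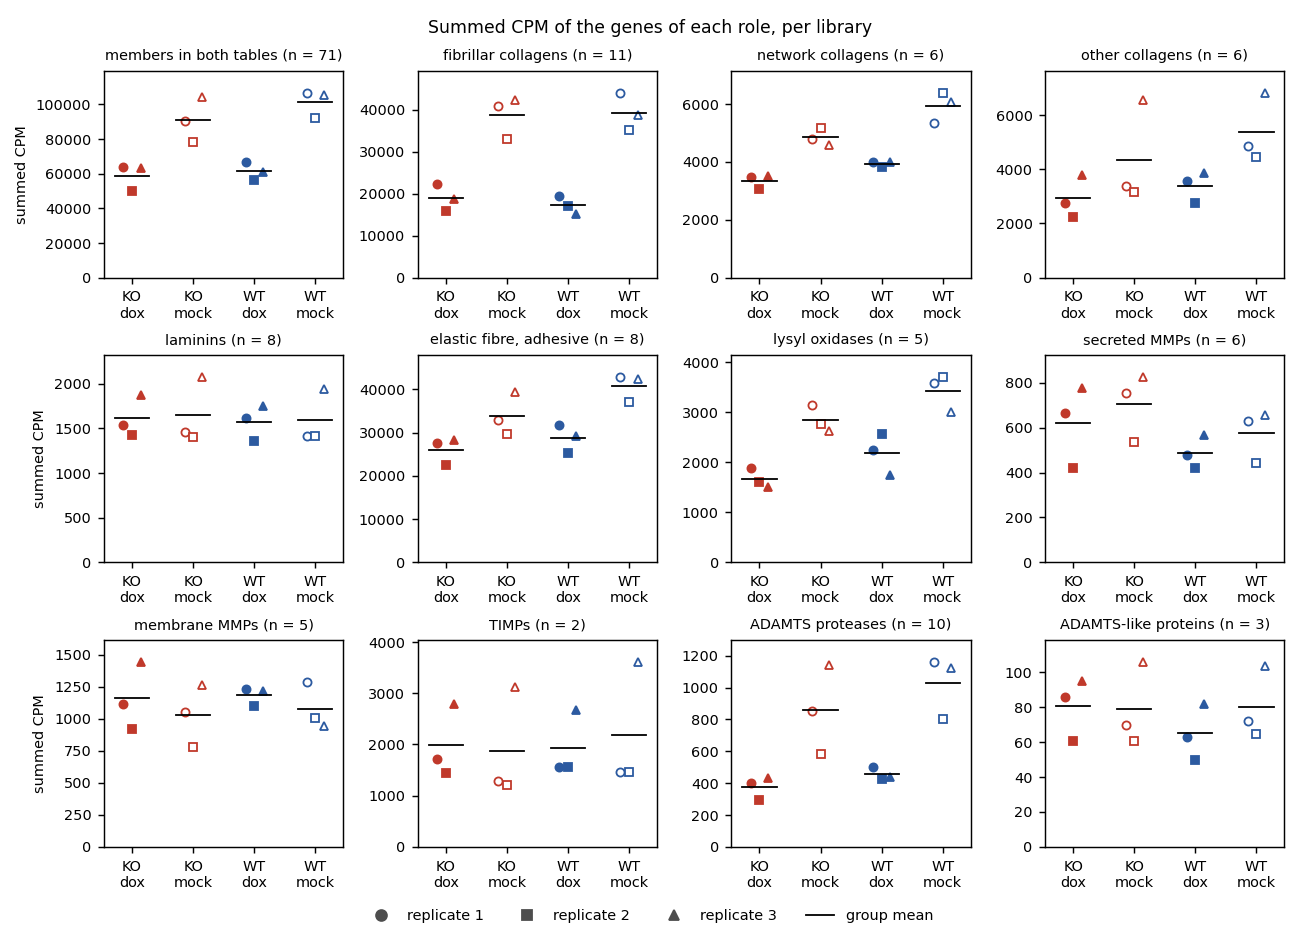
Summed CPM (vertical axis, from 0) of the matrix genes in both tables, all together and by role, in each of the 12 libraries; point shapes are replicate numbers, filled points doxorubicin, open points mock, and bars group means. Fibrillar collagens averaged 18994 and 17233 CPM in KO and WT doxorubicin libraries and 38728 and 39323 CPM in KO and WT mock libraries, whereas laminins averaged 1614 and 1578 CPM, against 1646 and 1589 CPM.

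Gene by gene, with limma on log2(CPM + 1) and Benjamini-Hochberg adjustment over all genes at 0.05, doxorubicin changed 42 of 71 matrix genes in WT cells, of which 10 rose and 32 fell. The background was 47.3% of all genes called, 25.9% higher and 21.4% lower, beside 59.2% of the matrix genes, 14.1% higher and 45.1% lower. In KO cells 31 of 71 were called, of which 6 rose and 25 fell, beside 34.5% of all genes, 19.9% higher and 14.6% lower. Blocking on replicate number brought the KO count to 49, of which 12 rose and 37 fell, against backgrounds of 53.7%, 29.6% and 24%. In WT the blocked count was 55, of which 14 rose and 41 fell, against 63.7%, 33.6% and 30.1%. The genes counted exceeded 2 CPM in every WT library of both treatments. These splits therefore leave out the 10 matrix genes listed after doxorubicin only and the 3 listed in mock only. The median log2 difference of the matrix genes was -0.48 in KO and -0.65 in WT cells, and that of all genes 0.035 in KO and 0.011 in WT. It was above 0 for 22 matrix genes in KO and 20 in WT, beside 52.9% and 50.6% of all genes. Libraries of the 2 treatments did not overlap for 35 matrix genes in KO (27 lower with doxorubicin, 8 higher; 48.6% of all genes) and 44 in WT (35 lower, 9 higher; 54.8%).

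The genes called were largely shared: all 6 that rose in KO were among the 10 that rose in WT (60.0% of these), and 23 fell in both, which is 92.0% of the 25 in KO and 71.9% of the 32 in WT. The difference had the same sign in both genotypes for 65 of 71 genes. The all-gene shares called in both genotypes or with the same sign are not given here. These overlaps therefore do not set the matrix genes apart from other genes. Of the calls, 25 of 31 in KO and 31 of 42 in WT were made again in each of 12 fits that left out 1 library. Centring each library on its median moved the median of all genes in WT to -0.10 and the all-gene split from 2664 higher and 2199 lower to 2202 and 2944. In KO that split moved from 2052 and 1500 to 1669 and 2027. The matrix genes' split after centring was 6 higher and 29 lower in KO, and 9 and 34 in WT.

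**Figure D2:**
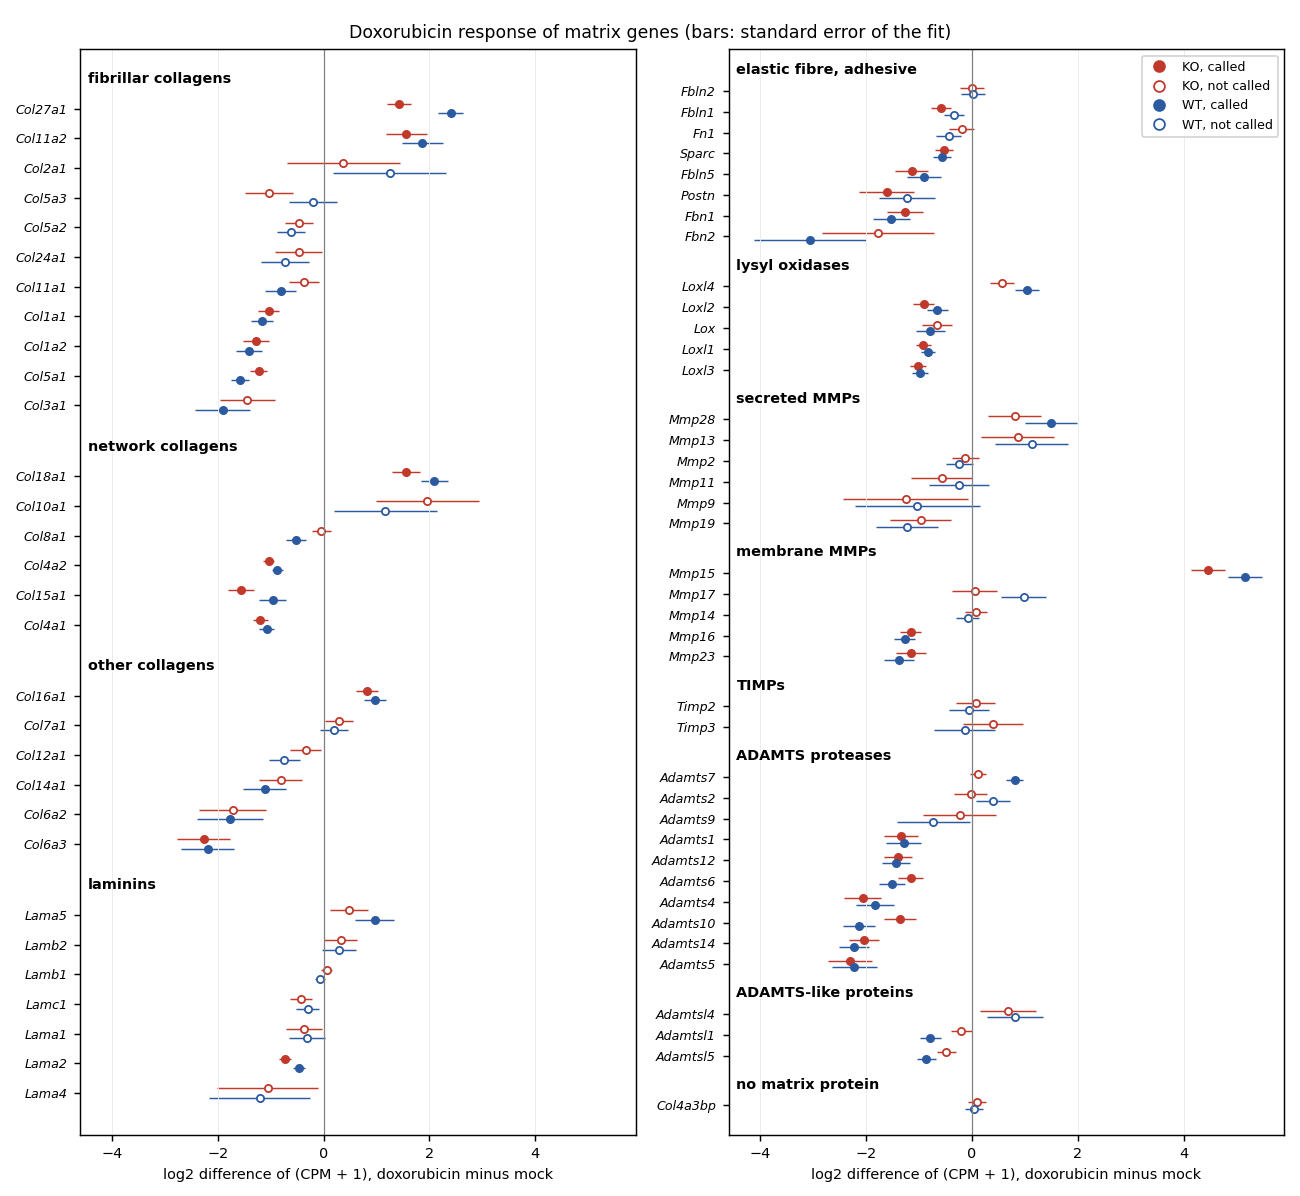
Log2 difference of (CPM + 1) between doxorubicin and mock (horizontal axis) for genes in both tables, grouped by role; red is KO, blue WT, bars are standard errors of the fit, and filled points passed an adjusted p of 0.05 without a block. Mmp15 stands at 4.45 in KO and 5.15 in WT, and most other filled points lie left of 0.

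The fibrillar collagens split. Of 11 genes, 3 fell and 2 rose in KO, beside 14.6% and 19.9% of all genes. In WT 5 fell and 2 rose, beside 21.4% and 25.9%. Col1a1 and Col1a2 encode the 2 chains of type I collagen, the main fibre of skin and bone. Col1a1 had 8787, 6705 and 7299 CPM in KO doxorubicin libraries, against 16414, 13638 and 16640 CPM in KO mock. In WT it had 8254, 7286 and 7008 CPM with doxorubicin and 18719, 15028 and 16703 CPM in mock. The treatments did not overlap, and Col1a1 fell by 1.04 in KO (SE 0.20, adjusted p = 0.0029) and by 1.16 in WT (SE 0.20, adjusted p = 0.000905) on the log2 scale. Col1a2 fell by 1.28 in KO and by 1.40 in WT (adjusted p 0.00256 and 0.00088).

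Col5a1, whose type V collagen nucleates and limits fibrils, fell by 1.23 in KO and by 1.58 in WT (adjusted p 0.000339 and 4.6e-05). Col3a1, the chain of type III collagen, had 1441, 401 and 1469 CPM in KO doxorubicin and 3244, 1382 and 3843 CPM in KO mock. In WT it had 758, 435 and 606 CPM with doxorubicin and 2888, 1449 and 2504 CPM in mock. The treatments overlapped in KO and not in WT. Col3a1 fell by 1.90 in WT (SE 0.52, adjusted p = 0.0111), while the KO difference of -1.45 (SE 0.52) had an adjusted p of 0.0505, and of 0.000361 with the block.

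Against the main fibrillar chains, Col27a1, a fibrillar collagen of cartilage, had 94.4, 115 and 177 CPM in KO doxorubicin libraries and 42.5, 41.4 and 54.7 CPM in KO mock. In WT it had 183, 191 and 280 CPM with doxorubicin and 40.1, 45.6 and 34.5 CPM in mock. It rose by 1.42 in KO (SE 0.23, adjusted p = 0.00107) and by 2.40 in WT (SE 0.23, adjusted p = 3.21e-05). Col11a2, a chain of the minor fibrillar collagen XI, rose by 1.56 in KO and by 1.86 in WT (adjusted p 0.0106 and 0.0027). Its mean was 14.8 ± 7.11 CPM in KO doxorubicin, 4.49 ± 2.51 in KO mock, 26.2 ± 8.07 in WT doxorubicin and 6.26 ± 0.715 in WT mock (SD, n = 3).

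Among basement membrane and network collagens the type IV chains and Col18a1 went opposite ways. Col4a1 and Col4a2, the chains of the ubiquitous type IV network, fell by 1.20 and 1.04 in KO (adjusted p 0.000212 and 8e-05) and by 1.07 and 0.87 in WT (adjusted p 0.000175 and 9.51e-05). Col4a1 had 1129, 1027 and 946 CPM in KO doxorubicin, against 2335, 2651 and 2131 CPM in KO mock. In WT it had 1437, 1593 and 1238 CPM with doxorubicin, against 2698, 3322 and 2960 CPM in mock. No doxorubicin library reached a mock library of either genotype. Col18a1, whose protein releases the fragment endostatin, had 1001, 797 and 1064 CPM in KO doxorubicin and 460, 294 and 248 CPM in KO mock. WT libraries gave 880, 594 and 1073 CPM with doxorubicin and 213, 151 and 221 CPM in mock, again without overlap. It rose by 1.55 in KO (SE 0.26, adjusted p = 0.00133) and by 2.09 in WT (SE 0.26, adjusted p = 0.000126). Col15a1, a basement membrane zone collagen like Col18a1, fell by 1.57 in KO (adjusted p = 0.000935) and by 0.96 in WT (adjusted p = 0.00817).

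Col4a1 and Col4a2 lie next to each other on chromosome 8, on opposite strands and with their starts close together. Their RefSeq promoter windows, 250 bases before to 50 after each start on GRCm38.p6, show this pair of genes that fell together. The starts lie 21 bases apart and the windows share 78 bases. By these starts each gene is transcribed across the start of the other, so their first bases overlap. Col4a1 is chr8:11312777-11313076 on the minus strand and Col4a2 chr8:11312555-11312854 on the plus strand. Mmp15 (chr8:95352046-95352345, plus strand) and Col27a1 (chr4:63215162-63215461, plus strand) are shown as the genes with the largest rises in WT. Capitals mark matches, on either strand, to TATAAA (a core promoter element), TGANTCA (an AP-1 site), GGGCGG (GC box), CCAAT or the p53 half-site.
Col4a1: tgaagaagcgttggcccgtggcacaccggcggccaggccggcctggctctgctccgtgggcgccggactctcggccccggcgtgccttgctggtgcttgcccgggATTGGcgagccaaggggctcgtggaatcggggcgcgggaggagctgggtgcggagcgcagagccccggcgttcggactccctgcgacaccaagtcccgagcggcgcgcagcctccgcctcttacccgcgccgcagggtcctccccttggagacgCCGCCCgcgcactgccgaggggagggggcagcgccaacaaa
Col4a2: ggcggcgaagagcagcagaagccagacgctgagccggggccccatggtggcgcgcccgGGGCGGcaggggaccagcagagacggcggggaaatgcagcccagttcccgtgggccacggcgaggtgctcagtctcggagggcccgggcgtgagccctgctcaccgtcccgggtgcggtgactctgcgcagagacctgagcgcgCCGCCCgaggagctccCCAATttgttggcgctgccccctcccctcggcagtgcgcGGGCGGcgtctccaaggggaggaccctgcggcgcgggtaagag
Mmp15: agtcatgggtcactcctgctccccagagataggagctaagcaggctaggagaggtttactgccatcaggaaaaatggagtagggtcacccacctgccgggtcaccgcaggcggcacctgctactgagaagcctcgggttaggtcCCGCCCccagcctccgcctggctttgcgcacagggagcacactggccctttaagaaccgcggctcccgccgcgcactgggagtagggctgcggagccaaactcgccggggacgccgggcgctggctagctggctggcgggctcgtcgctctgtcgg
Col27a1: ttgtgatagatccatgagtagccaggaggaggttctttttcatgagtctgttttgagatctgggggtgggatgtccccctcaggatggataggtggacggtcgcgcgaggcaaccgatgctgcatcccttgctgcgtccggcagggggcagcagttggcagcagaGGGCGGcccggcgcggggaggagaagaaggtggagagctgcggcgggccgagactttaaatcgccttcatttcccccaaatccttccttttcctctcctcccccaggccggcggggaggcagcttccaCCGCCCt
All 4 windows hold a GC box, and the one of Col4a1 lies in the shared bases and is also among those of Col4a2. A GC box was found in 35.7% of the 32851 RefSeq mouse windows, and counted by gene in 72.2% of the 54 matrix genes that had a window, against 38.2% of all genes. The Col4a1 and Col4a2 windows also hold a CCAAT box (37.4% of all windows). By gene it was found in 25.9% of the matrix genes, against 41.1% of RefSeq genes. The p53 half-site was found by gene in 9.26% against 9.55%, TATAAA in 14.8% against 15.7% and the AP-1 site in 5.56% against 8.97%. None of the 4 holds the p53 half-site, found in 8.36% of all windows, or TATAAA (13.6%). Matches are letters only, and no binding was measured.

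Type VI collagen forms beaded filaments around cells. Col6a3 had 164, 133 and 307 CPM in KO doxorubicin and 681, 652 and 1692 CPM in KO mock. For WT the values were 135, 263 and 368 CPM with doxorubicin and 813, 818 and 1892 CPM in mock. In all 4 groups replicate 3 was the highest, and the treatments did not overlap. Col6a3 fell by 2.27 in KO (SE 0.49, adjusted p = 0.00515) and by 2.19 in WT (SE 0.49, adjusted p = 0.00404). Col6a2 fell by 1.77 in WT (SE 0.63, adjusted p = 0.0373), and its KO difference was -1.72 (adjusted p 0.0532, and 0.000411 with the block). The WT call for Col6a2 was lost without WT mock replicate 1 (-1.57, adjusted p = 0.106) or 3 (-1.41, adjusted p = 0.125), or WT doxorubicin replicate 1 (-1.63, adjusted p = 0.0944) or 2 (-1.66, adjusted p = 0.0911). Col16a1, a collagen found on the surface of fibrils, rose by 0.82 in KO and by 0.97 in WT (adjusted p 0.0106 and 0.00291). Type VI has a first chain too, Col6a1, which was not analysed here.

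Laminins are trimers of an alpha, a beta and a gamma chain. Of 8 laminins in both tables the doxorubicin difference was above 0 for 4 in KO and 3 in WT, beside 52.9% and 50.6% of all genes. The counts of laminins called are not given here. Lama2, the alpha chain of muscle laminin, had 21.8, 18.4 and 22.3 CPM in KO doxorubicin and 35.5, 33.1 and 37.0 CPM in KO mock. WT cells had 33.5, 35.5 and 31.2 CPM with doxorubicin and 43.8, 47.5 and 48.0 CPM in mock. The treatments did not overlap in either genotype, and Lama2 fell by 0.73 in KO (SE 0.11, adjusted p = 0.000751) and by 0.46 in WT (SE 0.11, adjusted p = 0.00582). Lama5, an alpha chain with library values given below, rose in WT without the block. That call was lost in 7 of 12 fits without 1 library (0.66 to 0.99, adjusted p 0.0554 to 0.181). In KO it was called higher only with the block, and lost without number 1 or 3 (0.34 and 0.39, adjusted p 0.139 and 0.226). Lama3 and Lamb3, an alpha and a beta chain of epithelial laminins, were listed after doxorubicin only, so their response was not tested. Lamc1, a widespread gamma chain, had 290, 238 and 350 CPM in KO doxorubicin, 336, 371 and 470 in KO mock, 277, 242 and 333 in WT doxorubicin and 287, 313 and 467 in WT mock. Its differences of -0.43 in KO and -0.30 in WT were called only with the block (adjusted p 0.00474 and 0.0216, against 0.139 and 0.258 without it). The block call was lost in KO without number 2 (-0.32, adjusted p = 0.088) and in WT without number 2 (-0.27, adjusted p = 0.113) or 3 (-0.21, adjusted p = 0.19). Lamb1, a common beta chain, averaged 685 ± 38.0 CPM in KO doxorubicin, 659 ± 51.6 in KO mock, 711 ± 16.7 in WT doxorubicin and 747 ± 63.3 in WT mock and was not called.

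Elastic fibres hold elastin on a scaffold of fibrillin and fibulin. Fbn2, a fibrillin abundant in embryos, had 105, 11.7 and 119 CPM in KO doxorubicin and 211, 43.1 and 699 CPM in KO mock. In WT cells the values were 27.1, 10.5 and 18.3 CPM with doxorubicin and 169, 60.4 and 347 CPM in mock. Replicate 2 was the lowest in every group, and the treatments overlapped in KO and not in WT. Fbn2 fell by 3.06 in WT (SE 1.05, adjusted p = 0.033), and its KO difference was -1.78 (adjusted p 0.213, and 0.0105 with the block). The WT call was lost without WT mock replicate 1 (-2.99, adjusted p = 0.0775) or 3 (-2.47, adjusted p = 0.112), or WT doxorubicin replicate 2 (-2.72, adjusted p = 0.0952) or 3 (-3.09, adjusted p = 0.0731). Fbn1, the main fibrillin, fell by 1.26 in KO (adjusted p = 0.0158) and by 1.52 in WT (adjusted p = 0.00416). The KO call for Fbn1 was lost without KO mock replicate 3 (-0.91, adjusted p = 0.0544) or KO doxorubicin replicate 2 (-0.94, adjusted p = 0.0612). Elastin itself, Eln, was listed in mock only.

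Fn1, fibronectin, had 16809, 13849 and 17337 CPM in KO doxorubicin and 16986, 17628 and 20157 CPM in KO mock. WT libraries gave 20387, 14682 and 16860 CPM with doxorubicin and 23961, 22761 and 23234 CPM in mock. The differences of -0.19 in KO and -0.44 in WT were not called (adjusted p 0.551 and 0.14), the WT one being called with the block (adjusted p = 0.0179) but not with the block and without number 2 (-0.35, adjusted p = 0.147) or 3 (-0.43, adjusted p = 0.0857). Postn, periostin, fell by 1.61 in KO (adjusted p = 0.0327), and its WT difference was -1.23 (adjusted p 0.0721, and 0.000909 with the block). The KO call for Postn was lost without KO mock replicate 1 (-1.52, adjusted p = 0.0887) or 3 (-1.25, adjusted p = 0.112), or KO doxorubicin replicate 2 (-1.04, adjusted p = 0.118). Sparc, a collagen-binding glycoprotein, fell by 0.53 in KO and by 0.56 in WT (adjusted p 0.0357 and 0.0197). The KO call for Sparc was lost without KO mock replicate 1 or 2 (adjusted p 0.123 and 0.0675), WT mock replicate 2 (0.0503), or KO doxorubicin replicate 2 or 3 (0.0575 and 0.131). The WT call was lost without WT mock replicate 1 or 2 (adjusted p 0.0638 and 0.0521) or WT doxorubicin replicate 1 or 3 (0.0654 and 0.0614).

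Of the 5 lysyl oxidases, 3 fell in KO, beside 14.6% of all genes. In WT 4 fell and 1 rose, beside 21.4% and 25.9%. Lox, the first member of the family, averaged 564 ± 182 CPM in KO doxorubicin, 867 ± 140 in KO mock, 612 ± 203 in WT doxorubicin and 1013 ± 89.0 in WT mock. It fell by 0.79 in WT (adjusted p = 0.0367), and its KO difference was -0.66 (adjusted p 0.0874, and 0.00801 with the block). The WT call was lost without WT mock replicate 1, 2 or 3 in turn (adjusted p 0.0956, 0.0834 and 0.0549) or without WT doxorubicin replicate 3 (-0.47, adjusted p = 0.147). Loxl4 went the other way: it rose by 1.04 in WT (adjusted p = 0.00325), with a KO difference of 0.56 (adjusted p 0.0751, and 0.000473 with the block).

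The largest change of any matrix gene was that of Mmp15, a membrane-anchored metalloproteinase also called MT2-MMP. Mmp15 had 61.9, 97.8 and 159 CPM in KO doxorubicin libraries, against 3.95, 3.13 and 3.61 CPM in KO mock. For WT the values were 135, 132 and 263 CPM with doxorubicin, against 4.05, 3.36 and 3.82 CPM in mock. It rose by 4.45 in KO (SE 0.32, adjusted p = 1.99e-05) and by 5.15 in WT (SE 0.32, adjusted p = 4.06e-06) on the log2 scale. The pseudocount of 1 makes this smaller than the plain ratio for a gene this low in mock. Other membrane-bound enzymes went down: Mmp16 fell by 1.16 in KO and by 1.27 in WT, and Mmp23 by 1.15 in KO and by 1.37 in WT (adjusted p 0.000524 to 0.00896 over these 4 values). Mmp14, the main cell-surface collagenase, averaged 1022 ± 229 CPM in KO doxorubicin, 975 ± 241 in KO mock, 945 ± 98.3 in WT doxorubicin and 1008 ± 167 in WT mock and was not called (adjusted p 0.814 in KO and 0.758 in WT).

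**Figure D3:**
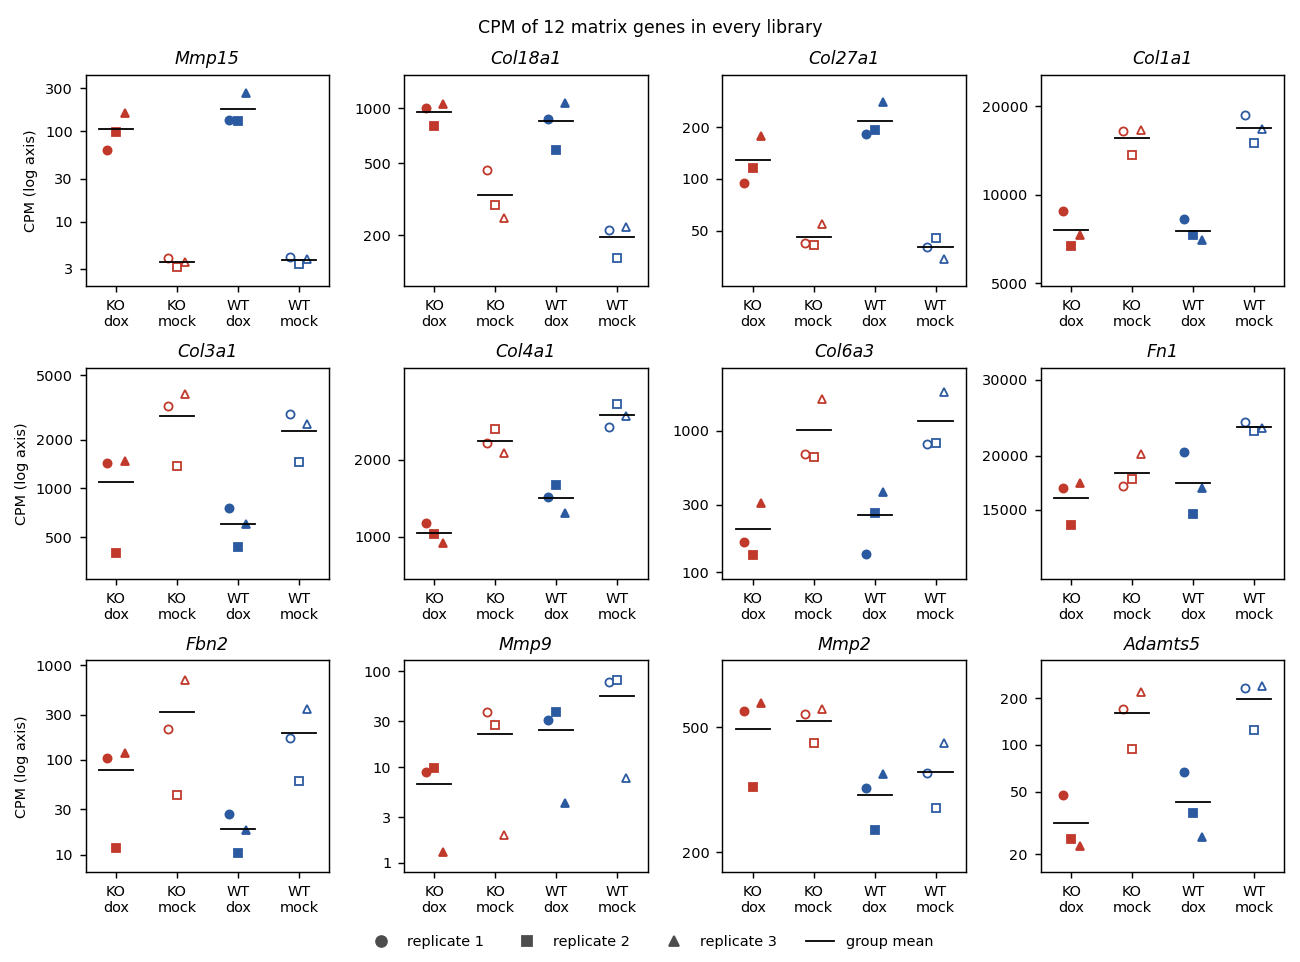
CPM on a log axis for 12 matrix genes in each library; red is KO, blue WT, filled doxorubicin and open mock, with point shapes for replicate numbers and bars for group means. Mmp15 runs from 61.9 to 263 CPM with doxorubicin and from 3.13 to 4.05 CPM in mock, and replicate 3 of Mmp9 is the lowest in all 4 groups.

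Without the block, of 6 secreted MMPs in both tables, none was called in KO, beside 34.5% of all genes. In WT none fell and 1 rose, beside 21.4% and 25.9%. That 1 was Mmp28, epilysin, which rose by 1.49 in WT (SE 0.49, adjusted p = 0.0282), with 0.80 in KO (adjusted p 0.232, and 0.00542 with the block). Its WT call was lost without WT mock replicate 1 (1.45, adjusted p = 0.0696) or 2 (1.19, adjusted p = 0.103), or WT doxorubicin replicate 2 (1.55, adjusted p = 0.0532) or 3 (1.04, adjusted p = 0.118). With the block 1 secreted MMP rose and 3 fell in KO, beside 29.6% and 24% of all genes. In WT 1 rose and 2 fell with it, beside 33.6% and 30.1%. Mmp9, with library values given below, was among those that fell in both genotypes. Mmp2, gelatinase A, had differences of -0.13 in KO and -0.24 in WT, and neither was called with or without the block. Nor were the inhibitors Timp2 (0.07 in KO and -0.05 in WT) and Timp3 (0.40 in KO and -0.14 in WT). Timp1 was not analysed here.

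Of the 10 ADAMTS proteases, 7 fell and none rose in KO, beside 14.6% and 19.9% of all genes. In WT 7 fell and 1 rose, beside 21.4% and 25.9%. Adamts5, an enzyme that cuts the proteoglycan aggrecan, had 47.9, 24.8 and 22.5 CPM in KO doxorubicin and 170, 94.1 and 218 CPM in KO mock. WT cells had 67.0, 36.8 and 25.7 CPM with doxorubicin and 232, 125 and 238 CPM in mock. No library of one treatment overlapped the other, and Adamts5 fell by 2.30 in KO (SE 0.42, adjusted p = 0.00201) and by 2.22 in WT (SE 0.42, adjusted p = 0.00145). The other aggrecanase, Adamts4, fell by 2.07 in KO and fell by 1.83 in WT (adjusted p 0.00142 and 0.00164). Adamts14, a procollagen trimming enzyme, fell by 2.05 in KO and by 2.22 in WT (adjusted p 0.000449 and 0.000139). Adamts10, which binds fibrillin, fell by 1.36 in KO and by 2.13 in WT (adjusted p 0.0052 and 0.000224), and Adamts12 by 1.40 in KO (adjusted p = 0.00263). Adamts1 and Adamts5, neighbours on chromosome 16, both fell in both genotypes.

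Some markers of other cell states moved with the treatment. Counts here are without the block unless stated, beside all-gene shares of 14.6% lower and 19.9% higher in KO. In WT these shares were 21.4% and 25.9%. With the block they were 24% lower and 29.6% higher in KO, and 30.1% and 33.6% in WT. Of 9 smooth muscle and myofibroblast markers, 4 fell and none rose in KO, and 6 fell and 1 rose in WT; the list summed to 3405 to 5683 CPM (KO doxorubicin), 7645 to 11267 (KO mock), 3318 to 8530 (WT doxorubicin) and 9562 to 14602 (WT mock). Of 9 fibroblast markers, 2 fell in KO and 3 in WT, with none higher without the block. With it 5 fell and 1 rose in KO, and 5 fell and none rose in WT. Pdgfrb fell by 2.16 in KO and fell by 2.60 in WT. Of the 3 epithelial markers in both tables, of 10 listed, Krt19 and Esrp2 rose in both genotypes, and the list summed to 106 to 282 CPM (KO doxorubicin), 11.0 to 42.4 (KO mock), 197 to 318 (WT doxorubicin) and 17.5 to 36.7 (WT mock). Of the 3 endothelial markers in both tables, of 10 listed, Kdr rose by 2.47 in KO and by 2.61 in WT (adjusted p 0.000179 and 5.98e-05). None of the 3 fell without the block. With it 2 rose and 1 fell in KO, and 2 rose and none fell in WT. The endothelial list summed to 155 to 198 CPM (KO doxorubicin), 159 to 394 (KO mock), 218 to 234 (WT doxorubicin) and 214 to 305 (WT mock). Cd68, the 1 of 9 listed blood markers in both tables, had 112, 63.7 and 45.4 CPM in KO doxorubicin, 58.3, 14.9 and 2.42 in KO mock, 126, 65.8 and 49.2 in WT doxorubicin and 29.2, 8.87 and 2.84 in WT mock. It rose by 2.84 in WT (adjusted p = 0.0276), with a KO difference of 2.24 (adjusted p 0.0862, and 0.0017 with the block). The part of these shifts in the matrix gene results was not tested.

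Between genotypes, the fit without a block called no matrix gene in mock (0 of 74, beside 0% of all genes) or after doxorubicin (0 of 81, beside 0%). At an unadjusted p under 0.05 in limma there were 7 matrix genes of 440 genes in mock and 15 of 1246 after doxorubicin. Same-numbered KO and WT libraries deviated together from their group means, so a fit blocked on that number stands beside it. That fit called 4 matrix genes in mock (5.41%, beside 0.92% of all genes): 3 higher in KO (beside 0.563%) and 1 lower (beside 0.357%). After doxorubicin it called 33 (40.7%, beside 25.3%): 8 higher in KO (9.88%, beside 11.8%) and 25 lower (30.9%, beside 13.6%). The median log2 difference of the matrix genes was -0.08 after doxorubicin and -0.12 in mock, and that of all genes 0.033 and 0.058. It was above 0 for 33 of 81 matrix genes after doxorubicin, beside 54.2% of all genes, and for 22 of 74 in mock, beside 66.6%. The mock background depended on the scaling: median centring put 19 matrix genes and 49.0% of all genes above 0, and quantile normalisation 23 and 52.1%. By pair 1, 2 and 3, it was above 0 for 39, 25 and 36 of 81 matrix genes after doxorubicin and for 20, 17 and 40 of 74 in mock.

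These counts rest on few libraries and on an uneven gene selection. Each gene in a table exceeded 2 CPM in every WT library, while a KO library was at or under 2 CPM for 5 matrix genes after doxorubicin and 4 in mock, so genes low in WT and high in KO could not appear. With the block, leaving out replicate number 1, 2 or 3 gave 11, 37 or 30 calls after doxorubicin and 1, 0 or 41 in mock. Of the calls, 10 of the 33 after doxorubicin and none of the 4 in mock were made in all 3 of these fits. The all-gene shares of these fits are not given here, so their counts show only how calls varied with the numbers kept. KO and WT libraries did not overlap for 13 matrix genes after doxorubicin, 2 higher and 11 lower in KO (beside 9.7% and 6.64% of all genes), and for 10 in mock, 2 higher and 8 lower (beside 8.25% and 1.74%; 16.3% of all genes after doxorubicin and 9.98% in mock in either direction).

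**Figure D4:**
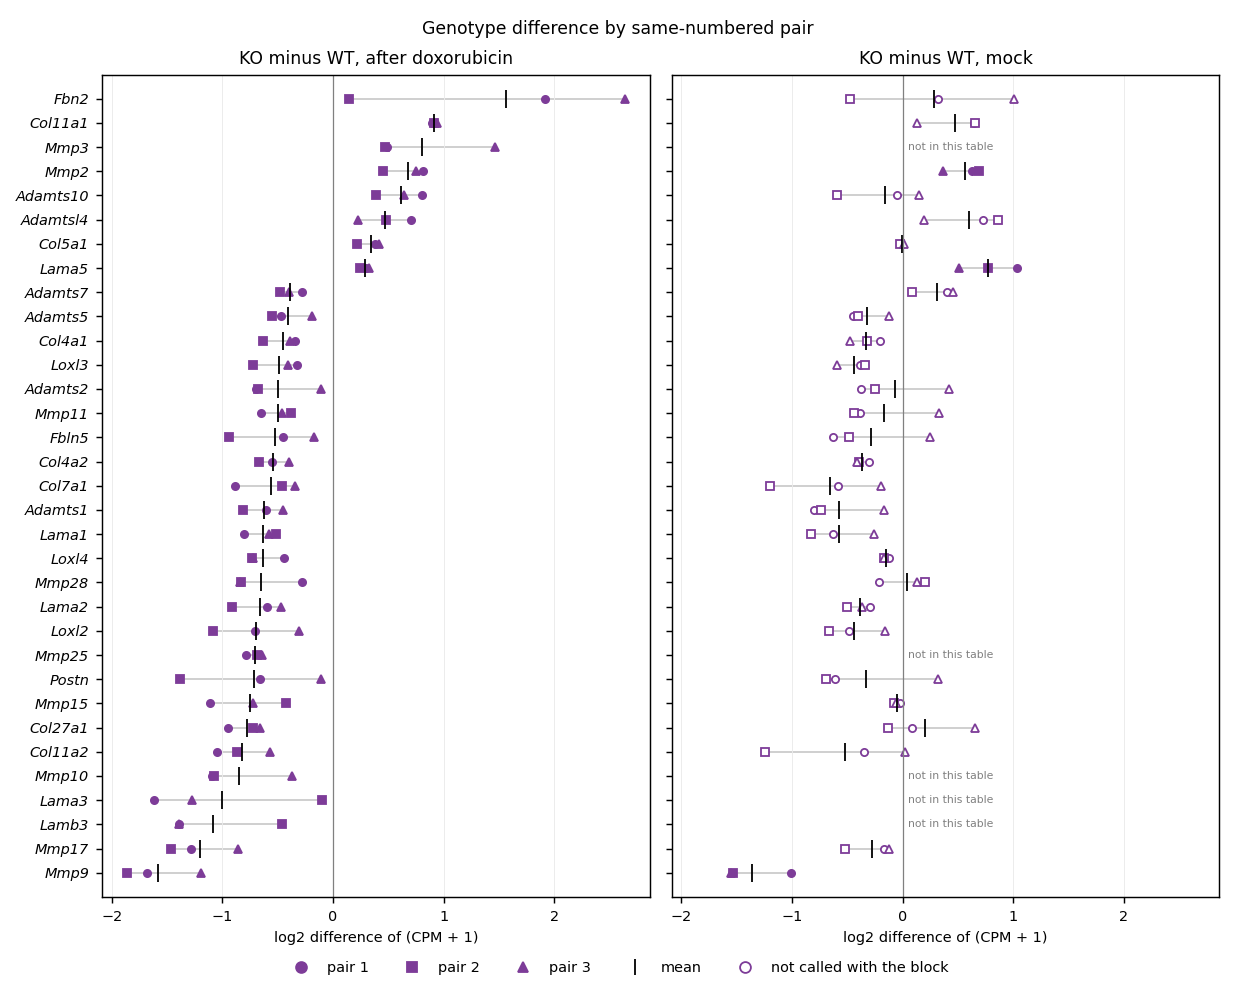
KO minus WT log2 difference of (CPM + 1) in each same-numbered pair (horizontal axis) for the 33 matrix genes called with the replicate block after doxorubicin, with the same genes in mock beside it; shapes are pairs, the tick is their mean, and open symbols were not called. The doxorubicin points of a gene lie on 1 side of 0, from which the genes were chosen, and in mock Mmp9, Mmp2 and Lama5 were also called.

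The gelatinases differed in opposite directions in both treatments. Mmp9, gelatinase B, had 8.96, 9.73 and 1.28 CPM in KO doxorubicin libraries, against 30.9, 38.1 and 4.23 CPM in WT doxorubicin. In mock it had 37.8, 27.4 and 1.97 CPM in KO, against 77.3, 81.4 and 7.70 CPM in WT. Replicate 3 was the lowest of every group, so the genotypes overlapped, yet KO lay below WT in each same-numbered pair. The difference was -1.58 after doxorubicin (block SE 0.16, adjusted p = 0.0044 with the block and 0.46 without) and -1.37 in mock (block SE 0.12, adjusted p 0.0246 and 0.978). Without number 2 the mock adjusted p was 0.175 (-1.28).

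Mmp2, gelatinase A, which Mmp14 activates with Timp2, had 562, 323 and 598 CPM in KO doxorubicin libraries and 319, 235 and 355 CPM in WT doxorubicin. In mock it had 552, 446 and 572 CPM in KO and 358, 277 and 444 CPM in WT, where KO lay wholly above WT. The difference was 0.67 after doxorubicin (block SE 0.09, adjusted p = 0.00607 with the block and 0.443 without) and 0.56 in mock (block SE 0.07, adjusted p 0.0489 and 0.978). In mock the block call was lost without number 1 (0.53, adjusted p = 0.236) or 2 (0.50, adjusted p = 0.309). Mmp14 and the TIMPs were called in neither treatment: Mmp14 differed by 0.09 after doxorubicin and -0.07 in mock, Timp2 by -0.10 and -0.22, and Timp3 by 0.25 and -0.29.

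Lama5, a laminin alpha chain of many basement membranes, had 259, 187 and 401 CPM in KO doxorubicin libraries and 211, 158 and 319 CPM in WT doxorubicin. In mock it had 152, 187 and 252 CPM in KO and 73.8, 109 and 177 CPM in WT. KO exceeded WT in each pair, by 0.29 after doxorubicin (adjusted p = 0.0235 with the block and 0.681 without) and by 0.77 in mock (adjusted p 0.0469 and 0.978). Block calls were lost without number 1 or 3 after doxorubicin (0.28 and 0.27, adjusted p 0.12 and 0.122) and without number 1 or 2 in mock (0.64 and 0.77, adjusted p 0.133 and 0.254). Col5a3, a less common chain of type V collagen, averaged 514 ± 220 CPM in KO and 269 ± 119 CPM in WT mock libraries, a difference of 0.92 (adjusted p = 0.0457 with the block and 0.978 without). That call was lost without number 1 (0.74, adjusted p = 0.105) or 2 (1.03, adjusted p = 0.175), and after doxorubicin Col5a3 averaged 248 ± 108 CPM in KO and 223 ± 63.5 CPM in WT and was not called.

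Of the genes higher in KO after doxorubicin, Col11a1, another collagen XI chain, differed by nearly the same amount in each pair. It had 313, 242 and 271 CPM in KO and 168, 128 and 142 CPM in WT doxorubicin libraries, with no overlap. The difference was 0.92 (block SE 0.07, adjusted p = 0.00359 with the block and 0.376 without), and it was called in each fit without 1 number. In mock it had 334, 285 and 468 CPM in KO and 214, 181 and 429 CPM in WT, a difference of 0.47 that was not called (adjusted p 0.108 with the block). Fbn2 had the largest difference, 1.56 (block SE 0.40, adjusted p = 0.0323 with the block and 0.452 without), with the library values given above, and its call was lost without number 1 (1.39, adjusted p = 0.131). Col5a1 was higher by 0.34, Adamts10 by 0.61 and Adamtsl4, an ADAMTS-like protein that binds fibrillin, by 0.47 (adjusted p 0.0307, 0.014 and 0.028 with the block). All 3 lost the call without number 1 (adjusted p 0.164, 0.0833 and 0.133), and Col5a1 also without number 3 (0.113).

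Of 10 laminin chains in the doxorubicin table the block called 4 lower in KO (beside 13.6% of all genes) and 1, Lama5, higher (beside 11.8%), and the fit without the block called none. Lama3 and Lamb3, among the 4 lower, were listed after doxorubicin only, where each WT library, but not each KO library, had to exceed 2 CPM. That selection favours lower KO values for low genes such as Lamb3, and its part in this count was not tested. Lama3 had 13.2, 33.5 and 15.8 CPM in KO and 42.5, 36.1 and 39.8 CPM in WT, a difference of -0.9995 (adjusted p = 0.0334 with the block and 0.443 without). Lamb3 had 1.47, 31.6 and 1.08 CPM in KO and 5.48, 43.9 and 4.45 CPM in WT, a difference of -1.08 (adjusted p 0.0141 and 0.668), with replicate 2 far above the others in both genotypes. Both calls were lost without number 1 (Lama3 -0.69, adjusted p = 0.14; Lamb3 -0.93, adjusted p = 0.0722). Lama2 had 21.8, 18.4 and 22.3 CPM in KO and 33.5, 35.5 and 31.2 CPM in WT, without overlap, a difference of -0.66 (adjusted p = 0.0116 with the block, and 0.0565 without number 1). Lama1, an alpha chain of embryonic basement membranes, differed by -0.63 (adjusted p 0.0261 with the block and 0.443 without), called in 1 of the 3 block fits without a number (adjusted p up to 0.118). Of 4 epithelial markers in the doxorubicin table, Krt19 and Esrp2 were also lower in KO with the block (-0.52 and -1.16), and their part in the laminin values was not tested.

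Among membrane-bound MMPs, 3 of 6 were lower in KO after doxorubicin with the block (beside 13.6% of all genes), and the fit without it called none. Mmp17, anchored to the membrane by a lipid, had 10.5, 25.3 and 24.5 CPM in KO and 26.9, 71.3 and 45.2 CPM in WT doxorubicin libraries, without overlap. Its difference was -1.20 (block SE 0.13, adjusted p = 0.0046 with the block and 0.443 without). Mmp15, described above for its rise, had a difference of -0.75 (block SE 0.12, adjusted p = 0.00934 with the block and 0.447 without), while in mock it differed by -0.06 and was not called. Mmp25, also lipid-anchored and likewise listed after doxorubicin only, averaged 5.54 ± 2.47 CPM in KO and 9.55 ± 3.54 CPM in WT, a difference of -0.70 (adjusted p = 0.0127 with the block, and 0.0663 without number 1). Col27a1, with the largest doxorubicin rise among collagens in WT, was lower in KO by 0.78 after doxorubicin (block SE 0.08, adjusted p = 0.0044 with the block and 0.443 without) and differed by 0.20 in mock, where it was not called. Col11a2 had a difference of -0.83 after doxorubicin (adjusted p = 0.00807 with the block and 0.443 without).

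Type IV collagen was lower in KO in both treatments by non-overlapping libraries, with the values given above. Col4a1 differed by -0.46 after doxorubicin (adjusted p = 0.0145 with the block and 0.443 without) and by -0.34 in mock (0.109 and 0.978). Col4a2 had 852, 786 and 860 CPM in KO and 1250, 1251 and 1137 CPM in WT doxorubicin libraries, and 1659, 1791 and 1691 CPM in KO and 2054, 2359 and 2253 CPM in WT mock. It differed by -0.54 after doxorubicin (adjusted p = 0.00804 with the block and 0.443 without) and by -0.37 in mock (0.0669 and 0.978). After doxorubicin both block calls were lost without number 1 (Col4a1 -0.51, adjusted p = 0.066; Col4a2 -0.54, adjusted p = 0.0592). Of 4 endothelial markers in each table, Eng alone was called with the block, lower in KO by 0.61 after doxorubicin (adjusted p = 0.0103) and by 0.57 in mock (adjusted p = 0.0362), and its part in the type IV values was not tested. Of 9 smooth muscle and myofibroblast markers the block called 3 lower in KO and none higher in mock, beside 0.357% and 0.563% of all genes. After doxorubicin it called 2 lower and 1 higher of these 9, and 2 of 3 adipocyte markers lower, beside 13.6% and 11.8%. Of 9 fibroblast markers it called 1 lower in mock, and 2 each way after doxorubicin. Without the block none of these was called, and their part in the matrix gene values was not tested.

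Loxl2, a lysyl oxidase that acts on type IV collagen, had 586, 538 and 551 CPM in KO and 954, 1141 and 682 CPM in WT doxorubicin libraries. The groups did not overlap, and the difference was -0.70 (adjusted p = 0.015 with the block and 0.443 without, and 0.0757 with the block and without number 1). Postn had 1204, 434 and 1697 CPM in KO and 1899, 1135 and 1829 CPM in WT, a difference of -0.72 (adjusted p = 0.0464 with the block and 0.509 without). That call was lost without number 1 (-0.75, adjusted p = 0.134) or 2 (-0.38, adjusted p = 0.091). Type I collagen and fibronectin were not called after doxorubicin: Col1a1 averaged 7597 ± 1073 CPM in KO and 7516 ± 654 in WT, Col1a2 4435 ± 1246 and 4211 ± 691, and Fn1 15999 ± 1880 and 17310 ± 2879. In mock Fn1 had 16986, 17628 and 20157 CPM in KO, wholly below 23961, 22761 and 23234 CPM in WT, a difference of -0.36 that was not called (adjusted p 0.978, and 0.212 with the block).

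The stromelysins Mmp3 and Mmp10, near neighbours on chromosome 9 with 1 coding gene between them, went opposite ways after doxorubicin, the only treatment in which they were listed. Mmp3 had 18.8, 12.4 and 89.1 CPM in KO and 13.1, 8.68 and 31.8 CPM in WT, a difference of 0.81 (adjusted p = 0.0295 with the block and 0.607 without). Mmp10 had 8.13, 18.6 and 11.0 CPM in KO and 18.5, 40.5 and 14.5 CPM in WT, a difference of -0.85 (adjusted p 0.0147 and 0.444). KO was above WT in each pair for Mmp3 and below it in each for Mmp10. Calls with the block were lost without number 1 (0.97, adjusted p = 0.0625) or 3 (0.48, adjusted p = 0.112) for Mmp3 and without number 1 for Mmp10 (-0.73, adjusted p = 0.0772). Their promoter windows are shown for that contrast, Mmp3 at chr9:7445572-7445871 and Mmp10 at chr9:7502092-7502391, both on the plus strand of GRCm38.p6, with capitals as before.
Mmp3: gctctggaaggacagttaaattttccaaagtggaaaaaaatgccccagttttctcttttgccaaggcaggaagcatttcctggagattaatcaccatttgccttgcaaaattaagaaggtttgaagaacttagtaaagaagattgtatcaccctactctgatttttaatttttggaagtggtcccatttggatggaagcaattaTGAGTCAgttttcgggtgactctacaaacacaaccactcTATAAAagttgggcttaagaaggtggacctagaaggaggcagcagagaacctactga
Mmp10: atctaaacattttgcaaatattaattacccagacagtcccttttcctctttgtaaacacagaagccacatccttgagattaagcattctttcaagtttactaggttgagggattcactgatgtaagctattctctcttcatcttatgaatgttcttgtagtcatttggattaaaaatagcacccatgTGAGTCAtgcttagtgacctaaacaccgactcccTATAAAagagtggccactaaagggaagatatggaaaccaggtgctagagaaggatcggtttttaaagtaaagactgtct
Both windows hold TATAAA and an AP-1 match, which 13.6% and 7.81% of all windows hold, and neither holds a GC box, CCAAT box or p53 half-site.

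**Figure D5:**
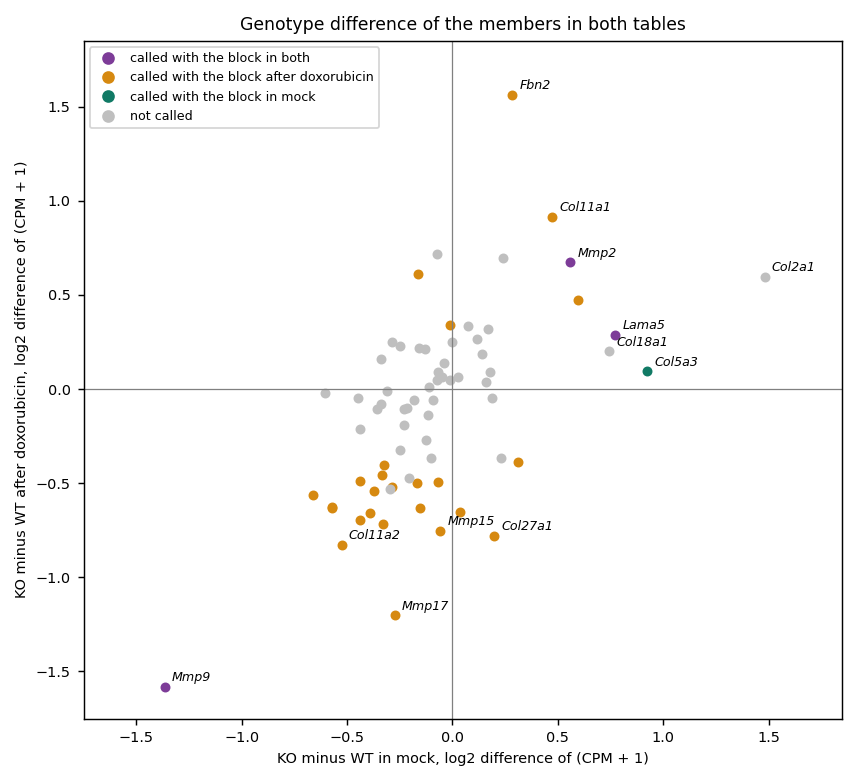
KO minus WT log2 difference of (CPM + 1) in mock (horizontal axis) and after doxorubicin (vertical axis) for the 71 matrix genes in both tables, coloured by the calls with the replicate block. Mmp9 lies at -1.37 and -1.58, Mmp2 at 0.56 and 0.67 and Lama5 at 0.77 and 0.29, the 3 genes called in both treatments.

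The sign of the genotype difference was the same in both treatments for 51 of the 71 matrix genes, and the all-gene share is not given here. The test of whether the doxorubicin response differed between KO and WT, limma's interaction term, called 0 of 71 matrix genes without and with the block, beside 0% of all genes. At an unadjusted p under 0.05 it held 2 matrix genes of 468 genes without the block and 8 of 1610 with it. The median interaction of the matrix genes was 0.03, and that of all genes 0.004. Among genes called with the block after doxorubicin, the interaction was -0.21 for Mmp9 (SE 1.67) and 1.28 for Fbn2 (SE 1.49). It was -0.93 for Mmp17 (SE 0.60) and -0.70 for Mmp15 (SE 0.46). Adjusted p in limma ran from 0.922 to 0.991 over these genes and, with the block, from 0.372 to 0.780. Col11a1, Col11a2 and Col27a1 differed more between genotypes after doxorubicin than Mmp15, and their interactions are not given here.

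Replicate number went with the level of some matrix genes, as it did over all genes. In 17 of 71 (23.9%) replicate 3 was the highest library in all 4 groups, beside 8.90% of all genes, and in 18 (25.4%) replicate 2 was the lowest in all 4, beside 12.2%. The other numbers were extremes of all 4 groups less often than over all genes. Replicate 1 was highest in 4.23% and replicate 2 in 5.63%, beside 8.16% and 12.7%. Replicate 1 was lowest in 1.41% and replicate 3 in 7.04%, beside 4.56% and 13.7%. Replicate 3 was highest for Timp2, Timp3, Col6a3, Mmp2 and Lama5, and replicate 2 lowest for Col3a1, Col5a1, Fbn1, Fbn2, Postn and Mmp2. Timp3 had 679, 615 and 1228 CPM in KO doxorubicin, 372, 385 and 1572 in KO mock, 680, 545 and 824 in WT doxorubicin and 487, 519 and 1615 in WT mock libraries. Within a group, the median coefficient of variation over matrix genes was 30.9% in KO doxorubicin, 28.3% in KO mock, 24.9% in WT doxorubicin and 24.6% in WT mock.

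Collagen chains are folded, modified and exported by a dedicated machinery. Of 24 listed collagen processing genes 20 were measured in both tables. In KO 1 rose and 6 fell (30.0%), beside 19.9% and 14.6% of all genes, and in WT 1 rose and 4 fell (20.0%), beside 25.9% and 21.4%. Serpinh1, the collagen chaperone HSP47, fell by 0.90 in KO (adjusted p = 0.000297) and by 0.95 in WT (adjusted p = 0.000108), with 1517 ± 52.7 CPM in KO doxorubicin, 2832 ± 175 in KO mock, 1440 ± 131 in WT doxorubicin and 2776 ± 128 in WT mock. Plod2, a lysyl hydroxylase that sets the kind of cross-link, rose by 1.29 in KO and by 1.73 in WT (adjusted p 0.000346 and 3.75e-05). After doxorubicin the block called 2 of 20 higher and 10 lower in KO than in WT, beside 11.8% and 13.6% of all genes, among them P4ha3, a prolyl hydroxylase subunit, by -0.72 and Ppib, a prolyl isomerase, by 0.27 (adjusted p 0.0074 and 0.0349 with the block, 0.443 without for both). The Ppib call was lost without number 1 (0.22, adjusted p = 0.194) or 3 (0.32, adjusted p = 0.0621).

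Proteoglycans and basement membrane partners gave 3 higher and 3 lower of 14 in KO with doxorubicin (21.4% each way), and 3 higher and 2 lower in WT (21.4% and 14.3%), against the same all-gene shares. Agrn, agrin, rose by 1.53 in KO and by 1.55 in WT (adjusted p 0.00705 and 0.00435), and Nid2, which links laminin to type IV collagen, by 0.64 and 0.97 (adjusted p 0.0294 and 0.00243). The KO call for Nid2 was lost without KO mock replicate 1 (0.57, adjusted p = 0.0916) or 2 (0.65, adjusted p = 0.0633), or KO doxorubicin replicate 2 (0.64, adjusted p = 0.0676) or 3 (0.45, adjusted p = 0.119). Aspn, asporin, fell by 4.02 in KO and fell by 3.76 in WT (adjusted p 0.00608 and 0.00579), with 12.8 ± 13.5 CPM in KO doxorubicin, 224 ± 208 in KO mock, 20.6 ± 14.7 in WT doxorubicin and 281 ± 139 in WT mock. Between genotypes Nid2 was higher in KO with the block in both treatments, by 0.41 after doxorubicin and 0.74 in mock (adjusted p 0.0483 and 0.0374, against 0.458 and 0.649 without it). These calls were lost without number 1 (0.44, adjusted p = 0.135) or 3 (0.23, adjusted p = 0.211) after doxorubicin and without number 1 (0.71, adjusted p = 0.147) or 2 (0.86, adjusted p = 0.158) in mock. Nid1, the related linker, was lower in KO after doxorubicin by 0.49 (adjusted p = 0.00887 with the block and 0.458 without), a call lost without number 1 (-0.53, adjusted p = 0.0615).

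Matricellular and elastic fibre partners gave 1 higher and 6 lower of 25 in KO with doxorubicin (4.00% and 24.0%, beside 19.9% and 14.6% of all genes), and 2 higher and 7 lower in WT, beside 25.9% and 21.4%. Ecm1 rose by 2.18 in KO and by 2.15 in WT (adjusted p 0.00263 and 0.00173). Mfap2 and Mfap5, microfibril proteins that sit with fibrillin, fell by 2.24 and 2.04 in KO (adjusted p 0.00198 and 0.00384) and by 2.46 and 1.77 in WT (adjusted p 0.000646 and 0.00538). After doxorubicin the block called 6 of 25 higher in KO than in WT and 1 lower (24.0% and 4.00%, beside 11.8% and 13.6%), among them Cyr61, a matricellular adhesion protein, at 966 ± 112 CPM in KO and 618 ± 118 CPM in WT (0.66, adjusted p = 0.0065 with the block and 0.443 without).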

How the data were processed

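RNA sequencing of 12 libraries was deposited by the authors as 2 tables of CPM (reads of a gene scaled to library total) one for mock and one for doxorubicin, and every gene listed exceeds 2 CPM in each WT library. TopHat2 2.0.6, HTSeq, edgeR and build NCBIM37 are named in the submitters' processing notes, without a stated order. Because the unit is CPM, no count test was run. Values were turned into log2(CPM + 1) and fitted with limma 3.58.1 (R 4.3.3, empirical Bayes with a trend), and p-values were adjusted by the Benjamini-Hochberg method over all genes of a comparison, with a threshold of 0.05. The genotypes were set against each other inside each table. Doxorubicin against mock, and the interaction, used the 10292 genes in both. The tables were normalised separately by library total. Both carry the mark noYX in their names, and no matrix gene listed lies on chromosome X or Y. For genes of those chromosomes, absence here need not mean low expression.

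Replicate numbers come from the labels, which do not say what they stand for. Same-numbered libraries deviated together from their group means: the correlation was 0.669 to 0.800 between KO and WT after doxorubicin, 0.710 to 0.855 in mock, and 0.394 to 0.728 between treatments. A fit with the number as a block therefore stands beside results it changes. The fitting steps were tested on simulated data.

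Named genes were a set of core members, up to 12 called genes each way between genotypes, up to 8 each way between treatments and up to 3 each way per partner list, by size. The member rule and the gene lists were chosen with earlier results of these data known. Because selection used WT levels, counts over members describe the genes listed. Alternatives were other pseudocounts (0.25 and 4), a mean of at least 5 CPM, median centring, quantile normalisation and leaving out each library or number. A gene counted among the members is not reported here.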

Additional observations from a re-analysis of the deposited data

Results flagged for a closer look

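Col15a1, a collagen of the basement membrane zone, was picked out because its KO and WT libraries differed in opposite directions in the 2 treatments. After doxorubicin it had 1.02, 2.31 and 2.22 CPM in KO and 2.08, 3.17 and 2.62 CPM in WT, lower in KO in each same-numbered pair. These WT values lie near the 2 CPM that every listed gene exceeds in WT libraries, a limit not set for KO libraries. For a gene this low the selection favours lower values in KO, and its part in the change of direction was not tested. In mock it had 8.47, 8.13 and 5.47 CPM in KO and 6.84, 7.17 and 4.40 CPM in WT, higher in KO in each pair. The interaction was -0.60 (SE 0.35) and did not pass limma's test (adjusted p 0.922, and 0.374 with the block).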

How the results depend on the processing

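The median of the matrix genes with doxorubicin stayed below 0 in the alternatives run, and the genotype counts depended on the replicate block. With the replicate block the calls were 33 after doxorubicin and 4 in mock between KO and WT, and 49 for doxorubicin in KO. Added after seeing the data, the block with median centring gave 34, 4 and 48 calls, the block with quantile normalisation 33 and 5 between genotypes, and a block fit on KO libraries alone 51. Median centring moved the WT doxorubicin median to -0.77, and quantile normalisation moved the interaction median to -0.045. The cause was not tested. With the block, leaving out number 1, 2 or 3 gave 11, 37 or 30 calls between genotypes after doxorubicin and 1, 0 or 41 in mock, and without number 2 the KO doxorubicin median was -0.66. Over these fits and those without 1 library there were 0 to 37 calls between genotypes after doxorubicin, 0 to 41 in mock, 25 to 46 for doxorubicin in KO, 32 to 51 in WT and 0 to 0 for the interaction. Medians ran from -0.17 to -0.027, -0.27 to 0.036, -0.68 to -0.41, -0.76 to -0.47 and -0.093 to 0.15 in the same order. The all-gene shares called in the fits that left out a library or number are not given here.

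Of 202 single-gene results none of the following, which changed sign, was called without the block. Under quantile normalisation, with or without the block, Col1a1 was 0.052 and Col5a1 0.19 between genotypes in mock, Col1a1 -0.21 after doxorubicin, and Timp2 0.063 for doxorubicin in WT. Under median centring, with or without the block, Col1a1 was -0.019 between genotypes after doxorubicin, and Lamb1 -0.028, Mmp14 -0.010 and Timp2 -0.019 for doxorubicin in KO. Without a library or number 25 results changed sign, 5 of them among these and 20 others. Leaving out 1 library without the block, those between genotypes after doxorubicin ranged from -0.10 to 0.095 (Col1a1), -0.14 to 0.28 (Col1a2), -0.22 to 0.017 (Fn1), -0.10 to 0.18 (Lamc1), -0.42 to 0.15 (Lox), -0.063 to 0.27 (Mmp14), -0.016 to 1.36 (Mmp3), -0.35 to 0.22 (Timp2) and -0.059 to 0.44 (Timp3). In mock they ranged from -0.16 to 0.061 (Col1a2), -0.058 to 0.69 (Col3a1), -0.14 to 0.11 (Col5a1), -0.28 to 0.22 (Eln), -0.28 to 0.33 (Fbn1), -0.24 to 0.13 (Mmp14), -0.70 to 0.13 (Postn), -0.50 to 0.14 (Timp2) and -0.97 to 0.27 (Timp3). For doxorubicin in KO they ranged from -0.12 to 0.25 (Mmp14), -0.29 to 0.16 (Mmp2) and -0.18 to 0.35 (Timp2), and in WT from -0.17 to 0.046 (Mmp14), -0.37 to 0.30 (Timp2) and -0.44 to 0.42 (Timp3). With the replicate block and without number 1, Col1a1 was -0.031, Col1a2 -0.012 and Lamb1 0.0055 after doxorubicin and Mmp14 0.044 in mock. Without number 2, Lox was 0.039 after doxorubicin, Mmp14 0.082 and Eln 0.055 in mock, and Mmp2 0.045 for doxorubicin in KO. Without number 3, Col1a1 was -0.015, Col1a2 -0.077 and Mmp14 -0.097 after doxorubicin, Fbn1 -0.025 in mock, and Timp3 0.28 for doxorubicin in WT. The count tests planned as alternatives were not run, because the tables hold CPM.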

Other observations

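Cells hold the matrix through integrins. Of 21 listed integrin and syndecan receptors in both tables, 4 rose and 4 fell with doxorubicin in KO (19.0% each way, beside 19.9% and 14.6% of all genes), and 5 rose and 5 fell in WT (23.8% each way, beside 25.9% and 21.4%). The laminin-binding alpha chains Itga6 and Itga3 rose by 2.63 and by 1.89 in KO (adjusted p 0.00176 and 0.0114) and by 3.47 and by 2.19 in WT (adjusted p 0.000192 and 0.00346). Itga11, a collagen-binding alpha chain, fell by 3.24 in KO and fell by 2.72 in WT (adjusted p 0.000174 and 0.000206). After doxorubicin the block called 1 of 23 receptors higher in KO than in WT and 6 lower (4.35% and 26.1%, beside 11.8% and 13.6%), among them Itga11 (-1.19), Itgb4 (-0.99) and Itga1 (-0.97), with adjusted p 0.0256, 0.00903 and 0.00924 with the block and 0.443 without it for all 3. Without number 1 the calls for Itga11 and Itga1 were lost (-1.30 and -0.85, adjusted p 0.077 and 0.0546). In mock it called Sdc4, a syndecan, and Itgb8 higher in KO by 0.84 and 1.06 (adjusted p 0.0374 and 0.0383 with the block, 0.792 and 0.978 without). Both calls were lost without number 1 (0.80 and 0.96, adjusted p 0.143 and 0.182) or 2 (0.74 and 1.20, adjusted p 0.198 and 0.175).

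Of 20 other pericellular proteases and inhibitors, 3 rose and 5 fell with doxorubicin in KO, and 4 rose and 5 fell in WT, against the same all-gene shares. Serpine2, an inhibitor of thrombin and of plasminogen activators, averaged 1348 ± 9.16 CPM in KO doxorubicin, 163 ± 36.0 in KO mock, 1203 ± 142 in WT doxorubicin and 110 ± 34.9 in WT mock (SD, n = 3). It rose by 3.06 in KO and by 3.48 in WT in limma (adjusted p 1.38e-05 and 4.06e-06). Plau, the urokinase plasminogen activator, rose by 1.47 in KO and by 1.61 in WT (adjusted p 0.00051 and 0.000153). Adam12, a membrane-anchored protease, fell by 1.78 in KO and by 1.95 in WT (adjusted p 0.00674 and 0.00264), and Ctsk, cathepsin K, which cuts collagen, by 1.37 in KO and by 1.49 in WT (adjusted p 0.0432 and 0.0234). The KO call for Ctsk was lost without any 1 of KO mock replicates 1 and 3, WT mock replicate 1, KO doxorubicin replicates 1 and 2 and WT doxorubicin replicates 1 and 2 (-1.43 to -0.96, adjusted p 0.0522 to 0.156). Its WT call was lost without WT mock replicate 1 or 3 or WT doxorubicin replicate 1 or 2 (-1.48 to -1.17, adjusted p 0.0568 to 0.0888).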
